A study of Homo sapiens with 5 samples.

Results

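The glucose transporter genes described here are SLC5A1, which encodes the sodium-coupled glucose transporter SGLT1, and 8 genes of the facilitative SLC2A (GLUT) family. They were taken by symbol, and all 9 were among the 25343 gene rows of the count table and among the 13604 genes with enough reads to be tested. The set was selected on the log2 fold change of SLC5A1 between pos and neg, which is therefore given as a description with no test. Counts per gene were measured by stranded mRNA sequencing in SW620, an established human colon carcinoma line grown from a lymph node metastasis. The genotype of all 5 libraries was tet-MUC1shRNA, a hairpin against MUC1 under tetracycline control, and treatment was with vehicle or with doxycycline, which induces such constructs. The labels call 2 libraries pos (replicates 1 and 3) and 3 libraries neg (replicates 1, 2 and 3) without saying which name stands for doxycycline, so these names are kept. The labels do not say whether the line is a single clone, and doxycycline-treated cells with a control hairpin were not analysed here. The labels mention triplicates but not separate cultures, so p-values measure only the spread between these libraries, which may be technical.

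Glucose enters cells by 2 kinds of carrier. SGLT1 couples glucose and galactose to sodium ions that run down the gradient kept by the sodium pump, and so can take up glucose against its own gradient; it is known for absorbing dietary glucose at the apical membrane of small intestinal enterocytes. GLUT carriers let sugars pass down their gradient, and GLUT1 (SLC2A1) and GLUT3 (SLC2A3) are the carriers best known for the high glucose uptake of tumour cells. Surface GLUT1 is lowered by the arrestin-like protein TXNIP, and hexokinases trap the imported glucose as a phosphate.

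Library totals were 12190025 and 13470767 reads in pos replicates 1 and 3, against 10888704 to 14137678 in neg. MUC1, the target of the hairpin, had 27 and 13 reads in pos replicates 1 and 3, against 176, 252 and 218 in neg replicates 1, 2 and 3. The pos pair was less alike than the neg pairs (Pearson r of log2 CPM across genes, which are not independent, 0.912 against 0.983 to 0.993). The level of a gene in pos replicate 3 varied with its transcript length. Among 10 groups of genes by length, the shortest had a median log2 ratio to neg of 1.48 and the longest -1.45 there, beside 0.47 and -0.32 in pos replicate 1. For that reason each member's transcript length is given with its values, and the fitted change of each member is also given with every library's trend on length removed. Of colon epithelium markers 11 of 11 had reads, with a summed level of 7910 to 16400 CPM (CPM, reads relative to the TMM-scaled library size) in pos and 6070 to 7890 CPM in neg. Members of that list did not move together: CDH1 was called lower (log2 fold change -1.68, edgeR adjusted p = 0.0434) and CDX2 higher (2.18, adjusted p = 0.0337), while CDX1 had no read in pos and 1 read in neg replicate 2. KRT20 and LGALS4 had no read in pos replicate 1, and 4 and 3 reads in pos replicate 3. The highest levels of the list were those of KRT8, KRT18 and KRT19, with short transcripts of 1784, 1413 and 1390 nt. Of 5 fibroblast markers 2 had no read in any library (COL1A2 and COL3A1), and the list summed to 11.1 to 12.9 CPM in pos and 18.3 to 21.0 CPM in neg. Of 4 leukocyte markers 3 had no read, PTPRC and CD3E among them, with sums of 0 CPM in pos and at most 0.161 CPM in neg. The 3 endothelial markers summed to 0.890 to 1.48 CPM in pos and 2.65 to 4.02 CPM in neg. The part of these marker levels in the results below was not tested.

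SLC5A1 was nearly lost in pos. It had 12 and 4 reads in pos replicates 1 and 3, against 283, 294 and 203 reads in neg replicates 1, 2 and 3. The scaled levels were 0.971 and 0.422 CPM in pos, against 19.8, 18.5 and 16.3 CPM in neg, so both pos libraries lay far below all neg libraries. The means were 0.696 ± 0.388 CPM in pos (SD, n = 2) and 18.2 ± 1.75 CPM in neg (SD, n = 3), a level 25-fold lower in pos (log2 fold change -4.64, SE 0.39). In a bulk culture, fewer cells with the transcript and less transcript per cell cannot be told apart. At so few reads, counting error alone (exact Poisson, 95%) spanned 0.502 to 1.70 CPM for pos replicate 1 and 0.115 to 1.08 CPM for pos replicate 3, which describes the precision of these 2 levels and is no test. Among the 10869 tested genes with a mean of at least 5 CPM, SLC5A1 had the second lowest log2 fold change, a rank that restates its choice.

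The gene lies on chromosome 22 from 32043261 to 32113029 on the plus strand (GRCh38, GENCODE 44), and its canonical transcript has 15 exons and 4832 nt. At that length the trend over all genes was -0.14 in pos replicate 1 and -0.71 in pos replicate 3 on the log2 scale. The log2 ratios of SLC5A1 to the neg mean were -4.02 and -4.99 in those libraries. With the length trend removed the fitted log2 fold change was -4.29 (SE 0.31). With the trend kept, it was -4.24 without pos replicate 3 and -5.35 without pos replicate 1. The 50-base words of the transcript were nearly all its own, with 0.08% found in another gene.

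**Figure D1:**
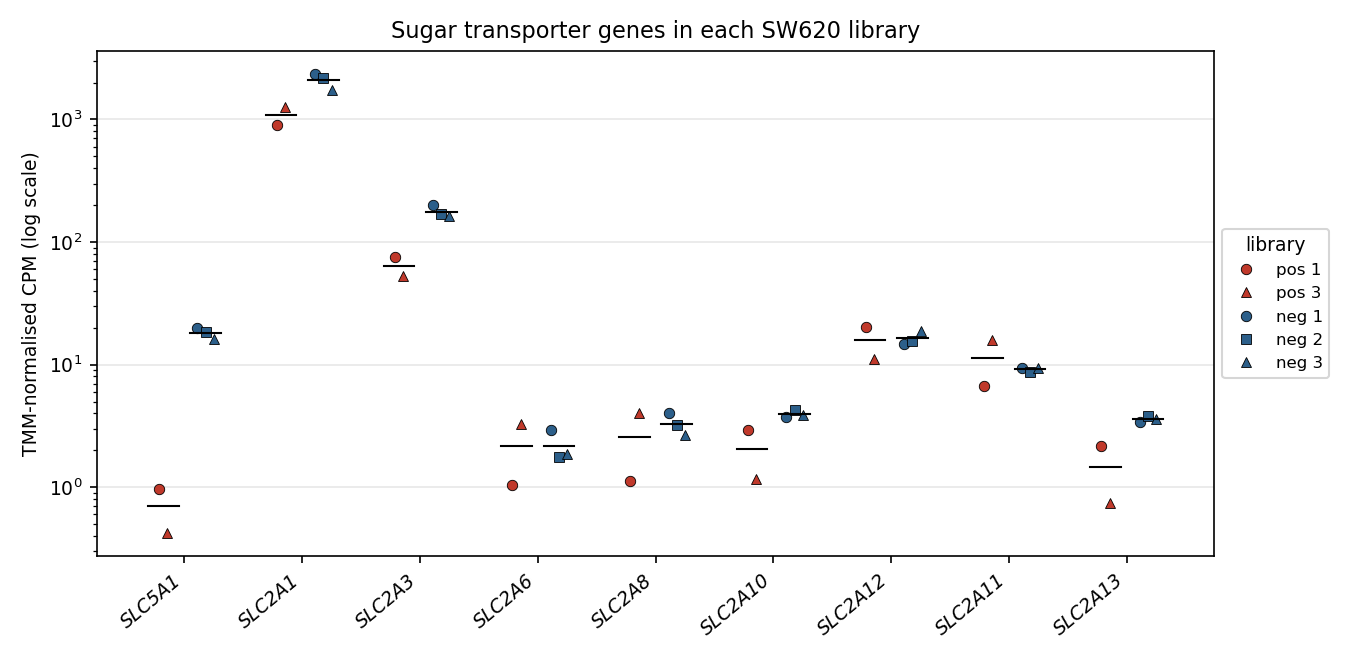
TMM-normalised CPM (log axis) of the 9 sugar transporter genes, with a point for each library, pos on the left in red and neg on the right in blue, and a line at each group's mean. SLC5A1 lies at 0.971 and 0.422 CPM in pos against 16.3 to 19.8 CPM in neg, while SLC2A12 and SLC2A11 overlap between the groups.

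The promoter windows of SLC5A1 and SLC2A1 are shown because these are the sodium-coupled carrier that chose the set and the most abundant GLUT gene. The windows hold 250 bases before and 50 after the annotated start (RefSeq, GRCh38.p14; chr22:32043011-32043310 on the plus strand and chr1:42958819-42959118 on the minus strand). Capitals mark matches, on either strand, to ACGTG (the core of hypoxia response elements), GGGCGG (the GC box of SP1), TGATGNAA (the amino acid response element of ATF4) or TATAAA (the TATA box).
SLC5A1: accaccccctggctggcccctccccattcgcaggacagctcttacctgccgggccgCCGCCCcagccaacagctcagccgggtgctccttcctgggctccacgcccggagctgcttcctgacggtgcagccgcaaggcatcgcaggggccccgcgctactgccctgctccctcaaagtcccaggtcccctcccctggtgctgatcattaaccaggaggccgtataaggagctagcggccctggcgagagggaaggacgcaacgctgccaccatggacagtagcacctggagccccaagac
SLC2A1: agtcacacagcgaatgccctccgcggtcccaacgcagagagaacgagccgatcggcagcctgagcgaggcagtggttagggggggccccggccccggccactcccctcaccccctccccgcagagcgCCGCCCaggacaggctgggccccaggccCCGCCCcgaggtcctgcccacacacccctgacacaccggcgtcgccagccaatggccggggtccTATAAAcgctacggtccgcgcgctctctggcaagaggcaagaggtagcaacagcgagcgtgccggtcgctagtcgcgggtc

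The SLC5A1 window held 1 GC box, at position -194 from the start. Of 35116 promoter windows of this length, 45.0% held a GC box. The SLC2A1 window held 2 GC boxes and a TATA box 31 bases before the start, and 11.5% of windows held a TATA box. Neither window held ACGTG, which 21.4% of windows held, or TGATGNAA, which 3.6% held. In these 2 windows no matches overlapped. Promoter windows were matched for 8 of the 9 members, all but SLC2A3.

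SLC2A1 and SLC2A3, which encode the basal uptake carriers GLUT1 and GLUT3, had lower transcript levels in both pos libraries. The test was passed by SLC2A3 alone. SLC2A1 had 11085 and 11965 reads in pos replicates 1 and 3, against 33802, 34400 and 21510 in neg replicates 1, 2 and 3, or 897 and 1260 CPM against 2360, 2160 and 1730 CPM. The groups did not overlap, with the highest pos level below the lowest neg level. The fitted log2 fold change was -0.95 (SE 0.27, 95% interval -1.62 to -0.28), and it missed the threshold (edgeR adjusted p = 0.0743). It was -0.81 (adjusted p = 0.0672) with the length trend removed, and DESeq2 called it (-0.91, adjusted p = 0.0179). SLC2A1 is a minus-strand gene of chromosome 1 (42925353 to 42958893), with a canonical transcript of 3384 nt.

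SLC2A3, whose product has a high affinity for glucose and is best known from neurons, had 75.0 and 53.3 CPM in pos replicates 1 and 3, against 199, 169 and 162 CPM in neg replicates 1, 2 and 3. Both pos libraries were below all neg libraries. It fell to 64.2 ± 15.3 CPM in pos (SD, n = 2), against 177 ± 19.6 CPM in neg (SD, n = 3), 2.75-fold lower (log2 fold change -1.46, SE 0.24, edgeR adjusted p = 0.0369). With the length trend removed it was at -1.25 (SE 0.17, adjusted p = 0.0130). The call ended without neg replicate 1, 2 or 3 (adjusted p = 0.178, 0.217 and 0.212), in fits that called 0 of all genes tested, at log2 fold changes of -1.37, -1.49 and -1.52. SLC2A3 is a minus-strand gene of chromosome 12 (7919230 to 8019007), and its canonical transcript has 3827 nt. Of its 50-base words 23.5% also occur in SLC2A14, a near-identical neighbour, so reads could be split between them. SLC2A14 itself had 0 and 1 reads in pos and 9, 3 and 5 in neg. The span of SLC2A3, introns included, also overlaps a long non-coding RNA gene (ENSG00000288043) on the opposite strand over 18544 bases. Whether exons overlap was not examined. Without the strand setting of the count, reads of that pair could not be told apart where exons do.

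The other 6 SLC2A members, at no more than 20.3 CPM in any library, did not pass the test. Of the 8 SLC2A members 1 was called lower and none higher, beside 4.13% of all 13604 genes called lower and 5.06% called higher (9.20% in either direction). With the length trend removed, SLC2A3 was again the 1 member called, beside 6.67% of genes called lower and 7.32% called higher. In 4 of the 8, the pos libraries lay below the neg libraries with no overlap (SLC2A1, SLC2A3, SLC2A10 and SLC2A13), as they did for 29.3% of all tested genes. The median log2 fold change of the 8 was -0.66, beside -0.05 over all tested genes, and -0.69 beside 0.02 with the length trend removed.

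SLC2A6 and SLC2A8 encode carriers that are held mainly on inner membranes. SLC2A6 had 1.05 and 3.27 CPM in pos replicates 1 and 3, against 2.94, 1.76 and 1.85 CPM in neg replicates 1, 2 and 3. The 2 pos libraries lay on either side of the neg range. Its log2 fold change was -0.04 (SE 0.56), and the 95% interval of -1.41 to 1.32 leaves room for a change in either direction. SLC2A8 had 1.13 and 4.01 CPM in pos, against 4.06, 3.21 and 2.65 CPM in neg. Again pos replicate 1 was below the neg range while pos replicate 3 lay inside it (log2 fold change -0.39, SE 0.56, 95% interval -1.75 to 0.97). Both genes are on chromosome 9, SLC2A6 at 133471094 to 133479127 (minus strand) and SLC2A8 at 127397138 to 127408424 (plus strand), with the shortest transcripts of the 9 members (2491 and 2145 nt). The trend at their lengths was 0.25 and 0.45 in pos replicate 3, and 0.07 and 0.12 in pos replicate 1. With the trend removed the fitted log2 fold changes were -0.22 (SE 0.51) for SLC2A6 and -0.73 (SE 0.47) for SLC2A8. Net of the trend, the log2 ratios of SLC2A6 to the neg mean were -0.99 in pos replicate 1 and 0.34 in pos replicate 3, and those of SLC2A8 were -1.53 and -0.17.

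SLC2A10, which encodes GLUT10 and is mutated in arterial tortuosity syndrome, had 2.91 and 1.16 CPM in pos replicates 1 and 3, against 3.71, 4.27 and 3.86 CPM in neg replicates 1, 2 and 3. Both pos libraries were below neg, with 36 and 11 reads against 48 to 68. The gene is on chromosome 20 at 46709649 to 46736347 (plus strand), with a transcript of 4227 nt. The log2 fold change was -0.93 (SE 0.43, 95% interval -1.98 to 0.13, edgeR adjusted p = 0.183), or -0.68 (SE 0.35) net of the length trend. It was -0.47 when pos replicate 3 was left out, and -1.71 (adjusted p = 0.00470) when pos replicate 1 was. SLC2A12, which encodes GLUT12, had 20.3 and 11.2 CPM in pos, against 14.8, 15.7 and 18.9 CPM in neg. Its pos replicate 1 was the highest of the 5 libraries and pos replicate 3 the lowest. The log2 fold change was -0.06 (SE 0.31, 95% interval -0.81 to 0.70) and turned to 0.41 (SE 0.18, adjusted p = 0.152) with the length trend removed, since its transcript has 5572 nt. SLC2A12 is on chromosome 6 at 133987581 to 134052624 (minus strand). Its span, introns included, overlaps that of the coding gene TBPL1 on the opposite strand over 2852 bases. Whether exons overlap was not examined. Without the strand setting of the count, reads of the pair could not be told apart where exons do.

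SLC2A11, which encodes GLUT11, had 6.64 and 15.9 CPM in pos replicates 1 and 3, against 9.44, 8.68 and 9.32 CPM in neg replicates 1, 2 and 3. The pos libraries lay on opposite sides of the narrow neg range (log2 fold change 0.29, SE 0.38, 95% interval -0.64 to 1.23, and 0.34 net of the length trend). The sign followed the library, at -0.49 without pos replicate 3 and 0.85 without pos replicate 1, and it was -0.19 with library size as the only scaling. SLC2A11 is on chromosome 22 at 23856703 to 23886312 (plus strand). Of the 50-base words of its transcript of 3088 nt, 12.6% also occur in a gene that overlaps it on the same strand (ENSG00000251357), so its count is uncertain. SLC2A13 encodes a proton-coupled carrier of myo-inositol, a sugar alcohol. It had 2.18 and 0.738 CPM in pos, against 3.43, 3.83 and 3.62 CPM in neg, from 27 and 7 reads in pos and 45 to 61 in neg. Both pos libraries were below neg (log2 fold change -1.27, SE 0.48, 95% interval -2.44 to -0.11), and the gene missed the threshold (edgeR adjusted p = 0.123). It was at -0.76 when pos replicate 3 was left out, and at -2.24 (adjusted p = 0.00225) when pos replicate 1 was. SLC2A13 is on chromosome 12 at 39755025 to 40106089 (minus strand). Its transcript is the longest of the members, at 7221 nt, and the trend at that length was -1.17 in pos replicate 3. The span of SLC2A13, introns included, overlaps that of C12orf40 on the opposite strand over 153276 bases. That is far more than the length of its transcript, and whether exons overlap was not examined. Net of the trend the log2 fold change of SLC2A13 was -0.71 (SE 0.34, adjusted p = 0.197).

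**Figure D2:**
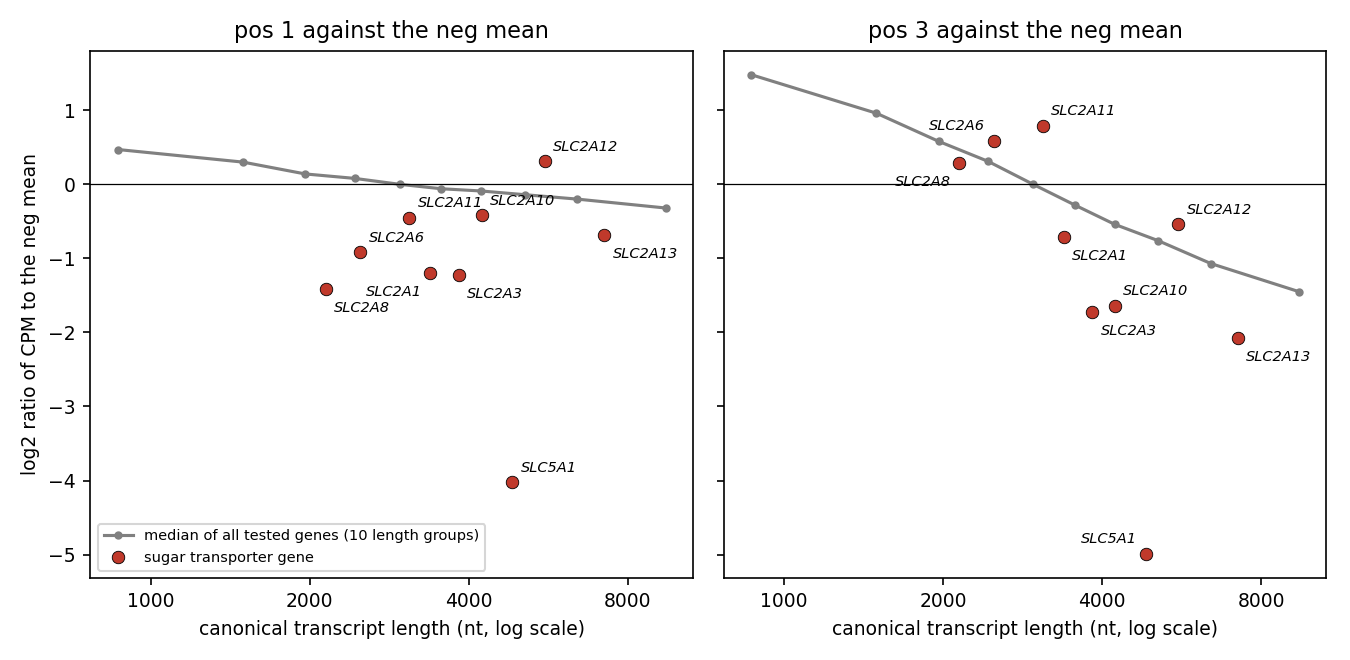
Log2 ratio of each sugar transporter gene to its neg mean (vertical axis) against the length of its canonical transcript in nt (log axis), in pos replicate 1 (left) and pos replicate 3 (right), with the median of all tested genes in 10 groups by length in grey. The grey line runs from 1.48 to -1.45 in pos replicate 3, and SLC5A1 lies far below it in both libraries, at -4.02 and -4.99.

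**Figure D3:**
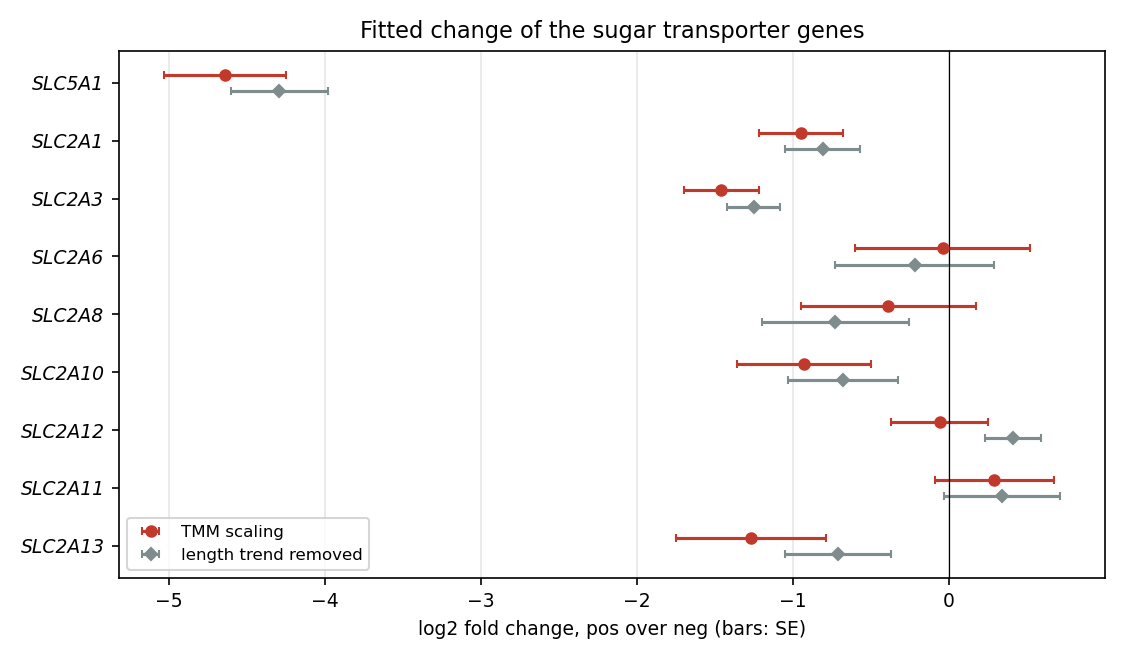
Fitted log2 fold change of pos over neg for the 9 genes, with bars of 1 SE, under TMM scaling (red circles) and with each library's length trend removed (grey diamonds). SLC5A1 lies at -4.64 and -4.29, SLC2A3 at -1.46 and -1.25, and SLC2A12 changes sign between the scalings.

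Levels were compared between members per length, as reads per kilobase of the canonical transcript scaled to the same total in each library (TPM). SLC2A1 led in every library, with 474 and 340 TPM in pos replicates 1 and 3, against 1550, 1540 and 1310 TPM in neg replicates 1, 2 and 3. It made up 90.6% and 93.8% of the summed TPM of the 9 genes in pos, against 90.2% to 91.8% in neg. SLC2A3 was second in all 5 libraries, with 35.1 and 12.7 TPM in pos and 106 to 116 TPM in neg. Reads of SLC2A1 per read of SLC2A3 were 12.0 in pos replicate 1, within the neg range of 10.6 to 12.8, and 23.6 in pos replicate 3. TPM depends on the whole length profile of a library, so it serves here for the order of genes and not for changes between groups.

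SLC5A1 stood near the top of that order in neg and at its end in pos, a drop that restates its choice. In pos it had the lowest TPM of the 9 in both libraries, with 0.359 and 0.0796 TPM, next to SLC2A13 with 0.541 and 0.0932 TPM. In pos replicate 3 that last step rests on 4 against 7 reads. In neg, SLC5A1 followed SLC2A3 by mean, with 8.99 ± 0.297 TPM (SD, n = 3), above SLC2A12 with 7.11 ± 1.43 TPM and SLC2A11 with 7.10 ± 0.553 TPM. The 3 could not be fully separated there, because SLC2A12 had 8.69 TPM and SLC5A1 8.65 TPM in neg replicate 3. SLC5A1 made up 0.0687% and 0.0220% of the summed TPM in pos, against 0.536% to 0.596% in neg. Reads of SLC2A1 per read of SLC5A1 numbered 924 and 2990 in pos, against 106 to 119 in neg. Both the shares and these ratios restate the same fall of SLC5A1.

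The order went on with SLC2A11 and SLC2A12 with 4.27 ± 0.606 and 4.17 ± 3.32 TPM in pos (SD, n = 2), followed by SLC2A8 with 1.32 ± 0.536, SLC2A6 with 0.976 ± 0.312, SLC2A10 with 0.741 ± 0.695 and SLC2A13 with 0.317 ± 0.317 TPM. With 2 libraries, SLC2A11 and SLC2A12 and the run from SLC2A8 to SLC2A10 overlapped in pos. The ranges of SLC2A10 and SLC2A13 also overlapped there, with SLC2A13 the lower in each library. In neg, SLC2A8 had 3.66 ± 0.517 TPM, SLC2A10 2.24 ± 0.259, SLC2A6 2.07 ± 0.481 and SLC2A13 1.21 ± 0.132 TPM (SD, n = 3). There SLC2A10 and SLC2A6 overlapped, while SLC2A8 lay above both and SLC2A13 below both in all 3 libraries.

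The genes whose profile over the 5 libraries was most like that of SLC5A1 were sought among 10868 tested genes with a mean of at least 5 CPM. Likeness was the Euclidean distance between log2 ratios to the neg mean, a description with no test. The 5 nearest were UNC5B (a netrin receptor, distance 0.61), SCN4A (a skeletal muscle sodium channel, 0.94), CREB5 (a bZIP transcription factor, 1.05), LAMP3 (a lysosomal membrane protein, 1.10) and IGFBP1 (a secreted IGF binding protein, 1.14). Reads in pos replicates 1 and 3 were few for SCN4A (9 and 4), CREB5 (19 and 11) and LAMP3 (16 and 1). SLC5A1 itself had 12 and 4 there, so the distances and their order are imprecise. UNC5B had 15.6 and 7.59 CPM in pos replicates 1 and 3, against 196, 186 and 181 CPM in neg replicates 1, 2 and 3, while IGFBP1 had 2.99 and 3.37 CPM in pos, against 55.7, 54.1 and 43.6 CPM in neg. With the length trend removed from the profiles, IGFBP1 was the nearest gene at 0.64, UNC5B was the fifth at 0.97, and the other 3 ranked 11, 13 and 14. SLC2A6, SLC2A8, SLC2A10 and SLC2A13, with means under 5 CPM, were not among the genes searched. SLC2A1, SLC2A3, SLC2A11 and SLC2A12 were searched and were not among the 5 nearest. Their absence only restates the larger fall of SLC5A1, which chose the set.

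The rest of the 2 carrier families showed little. Of 18 further carriers (SLC2A and SLC5A genes and the sugar carrier SLC50A1), 5 had enough reads to be tested and none passed, with a median log2 fold change of -0.22. The smallest p was that of SLC5A6, the sodium-coupled vitamin carrier, with 81.5 and 87.1 CPM in pos replicates 1 and 3, against 67.7, 63.9 and 56.8 CPM in neg (log2 fold change 0.42, SE 0.18, edgeR adjusted p = 0.162, and 0.51 net of the length trend). SLC2A2, SLC2A5 and SLC2A7, which encode the hepatic GLUT2, the fructose carrier GLUT5 and GLUT7, had no read in any library. No read allows up to 3 reads a library, which here were equal to 0.243 and 0.316 CPM in pos replicates 1 and 3 and 0.189 to 0.241 CPM in neg.

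Genes that act on the carriers after synthesis rose where they passed. Of 23 trafficking and turnover genes 3 were called higher and none lower, beside 5.06% and 4.13% of all tested genes. The list had a median log2 fold change of 0.22, beside -0.05 over all tested genes. A negative log2 fold change was found for 10 of the 23, and for 7074 of all 13604 tested genes. With the length trend removed the median was 0.12, beside 0.02 over all tested genes. Then 4 of the list were called higher and none lower, beside 7.32% and 6.67% of all tested genes. TXNIP, which draws GLUT1 from the cell surface, had 281 and 329 CPM in pos replicates 1 and 3, against 70.8, 70.4 and 71.6 CPM in neg replicates 1, 2 and 3. Both pos libraries stood well above a tight neg group, and TXNIP rose by a log2 fold change of 2.10 (SE 0.18, edgeR adjusted p = 0.0261), or 2.09 (SE 0.14) with the length trend removed. ASPSCR1, known as TUG and as a tether of GLUT4 vesicles, had 406 and 1250 CPM in pos, against 173, 162 and 125 CPM in neg. It rose by 2.43 (SE 0.47, adjusted p = 0.0403), with pos replicate 3 above pos replicate 1. Its log2 fold change was 1.88 net of the length trend. It was 1.38 when pos replicate 3 was left out and 3.07 when pos replicate 1 was. VPS29, a retromer subunit, rose by 1.01 (SE 0.20, adjusted p = 0.0406). It did not pass net of the length trend (0.44, adjusted p = 0.104), nor when libraries were scaled by size alone (0.60, adjusted p = 0.112).

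Of the sodium pump, which supplies the gradient that SGLT1 uses, 9 of 14 genes were tested, with 1 called higher and 2 lower (all tested genes, 5.06% and 4.13%) and a median of 0.21 (all tested genes, -0.05). FXYD4, a regulatory subunit, had 0.405 and 0.422 CPM in pos replicates 1 and 3, against 6.08, 3.96 and 3.38 CPM in neg replicates 1, 2 and 3. It fell, with no overlap between the groups (log2 fold change -3.41, SE 0.48, edgeR adjusted p = 0.0326). The FXYD4 levels in pos rest on 5 and 4 reads, against 87, 63 and 42 in neg, so the size of the fall is imprecise. With the length trend removed the change of FXYD4 was -4.44 (SE 0.47), for a transcript of 779 nt. FXYD3, another regulatory subunit, rose to 85.9 and 253 CPM in pos, against 36.2, 34.7 and 27.7 CPM in neg (2.37, SE 0.45, adjusted p = 0.0397). Net of the length trend the change was 1.59. It was 1.36 when pos replicate 3 was left out and 2.99 when pos replicate 1 was.

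Among genes that capture glucose or divert it, 14 of 17 were tested, with 1 called higher and 2 lower and a median of -0.15. The same shares of all tested genes (5.06% and 4.13%) and the same median (-0.05) are the background here. HKDC1, a hexokinase family member, had 15.9 and 15.2 CPM in pos replicates 1 and 3, against 130, 120 and 115 CPM in neg replicates 1, 2 and 3. It fell by 2.97 on the log2 scale (SE 0.20, edgeR adjusted p = 0.0180), and by 2.78 with the length trend removed. GFPT1, which commits fructose 6-phosphate to hexosamine synthesis, had 79.5 and 37.4 CPM in pos, against 353, 356 and 399 CPM in neg. It fell by 2.66 (SE 0.37, adjusted p = 0.0326) and by 1.95 with the length trend removed. Its log2 fold change was -2.24 without pos replicate 3 and -3.26 without pos replicate 1. AKR1B1, the aldose reductase of the polyol pathway, rose to 75.4 ± 30.3 CPM in pos, against 28.5 ± 5.06 CPM in neg (1.40, SE 0.31, adjusted p = 0.0476). Its transcript of 1361 nt is short, and net of the length trend the change was 0.70 (adjusted p = 0.0382). It was 0.89 when pos replicate 3 was left out and 1.81 when pos replicate 1 was. The gene missed the threshold with library size as the only scaling (0.95, adjusted p = 0.0744) and in limma-voom (1.35, adjusted p = 0.0550).

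Of 12 tested genes of lactate and pyruvate handling, MPC2 alone was called, a share near the 9.20% of all tested genes called in either direction. This subunit of the mitochondrial pyruvate carrier rose to 67.5 ± 17.4 CPM in pos, against 32.3 ± 1.67 CPM in neg (log2 fold change 1.06, SE 0.22, edgeR adjusted p = 0.0450), or 0.79 net of the length trend, in a list with a median of 0.17. With the trend removed LDHA, a lactate dehydrogenase subunit gene named after its values were seen, was also called, as lower (-1.0, adjusted p = 0.0129, against -0.75 and 0.0650 with the trend kept). With library size as the only scaling MPC2 was at 0.64 (adjusted p = 0.100). The 14 tested regulators of the carriers had a median of -0.45, or -0.06 with the length trend removed.

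**Figure D4:**
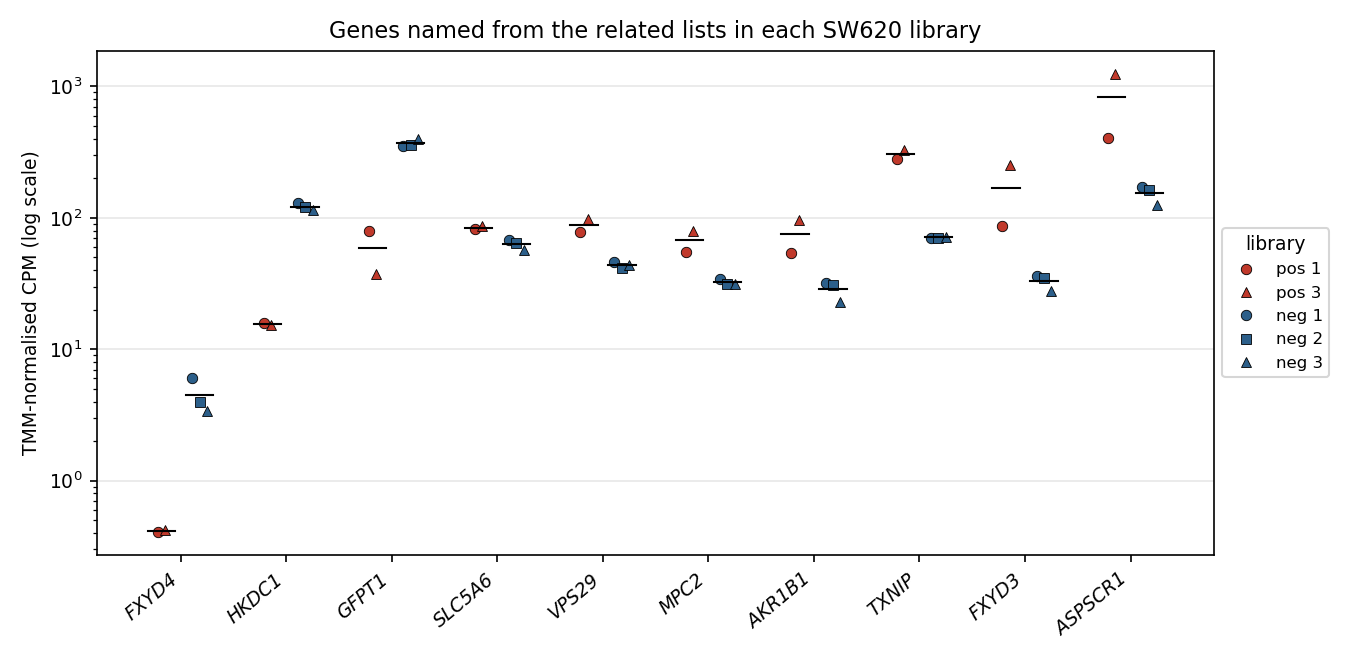
TMM-normalised CPM (log axis) of the 10 genes named from the related lists, ordered by log2 fold change, with a point for each library, pos on the left in red and neg on the right in blue, and a line at each group's mean. FXYD4, HKDC1 and GFPT1 lie lower in pos, and TXNIP, FXYD3 and ASPSCR1 higher, without overlap.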

How the data were processed

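The authors deposited 1 table of raw counts per gene symbol, from TruSeq stranded mRNA libraries that were aligned with STAR (per the labels' protocols). CASAVA 1.8.2, STAR 2.5.2b and DESeq2 1.24.0 appear in the submitters' processing notes. They name hg19, while the labels' protocol names GRCh38, so coordinates and lengths come from GENCODE 44. Which program counted reads, and with which strand option, is not given in the sources used here. Of 25435 rows, 92 spike-in rows without reads were left out.

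Counts were filtered with filterByExpr (minimum count 10, minimum total 15), scaled by TMM and tested in R 4.3.3 with edgeR 4.0.16 (glmQLFit and glmQLFTest, two-sided, Benjamini-Hochberg over 13604 genes at 0.05). Each SE was the fold change (log2) over the square root of F. Log2 ratios used a prior count of 2. Length trends (lowess, span 0.3, on canonical transcript length, known for 97.5% of tested genes) entered as offsets. DESeq2 1.42.0 and limma-voom (limma 3.58.1) were alternatives. Replicates of each group differed by more than sampling noise (chi-square per degree of freedom at least 6.02).

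Members and lists were chosen with earlier results of these data known. The genes named were the 9 members, the 5 nearest profiles, MUC1 and, per list, up to 5 called genes or the smallest p; a few results that this rule would name are not reported here.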

Additional observations from a re-analysis of the deposited data

How the results depend on the processing

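The 1251 calls over all genes, the 1 call among 8 SLC2A genes and the 11 calls in the related lists became 3161, 2 and 22 with DESeq2. An adjusted p of 0.01 left 1, 0 and 0. Scaling by library size alone left 606 calls over all genes (148 higher and 458 lower, against 689 and 562), at a median log2 fold change of -0.41. Removing the length trend gave 1903. With the replicate number as a block (replicate block), 87, 0 and 2 genes were called, and with the length trend also removed 419 over all genes and 0 SLC2A genes. The labels do not say that the numbers mark shared cultures. The main fit did not take the numbers as pairs. The r of deviations of same-numbered libraries (-0.443 and -0.448) cannot decide the question, because the deviations of 2 pos libraries mirror each other.

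Leaving out single libraries moved the 3 counts over 0 to 8819, 0 to 5 and 0 to 58. Once the length trend was taken out, the counts were 7207, 4 and 50 without pos replicate 1, and 4997, 4 and 37 without pos replicate 3. The lowest values came without any neg library, where edgeR called 0 genes, with 3033, 2510 and 2607 at an unadjusted p under 0.05. The highest came from a lone pos library that was assumed to vary like neg, so these calls describe that library.

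SLC5A1 kept its sign in every setting run, from -5.35 (without pos replicate 1) to -4.09 (length trend removed, without pos replicate 3). SLC2A1 and SLC2A3 also kept theirs, with SLC2A3 past the threshold except with library size only (-1.80, adjusted p = 0.0510), with the block (adjusted p = 0.305, and 0.0675 after removal of the trend), without any neg library, and at 0.01. Signs turned for SLC2A6, SLC2A8, SLC2A11 and SLC2A12, none of them called with all libraries. SLC2A6 reached 0.02 with DESeq2, 0.00 with DESeq2 size factors, 0.24 without neg replicate 1, 0.63 without pos replicate 1 (0.36 net of the trend), against -1.07 without pos replicate 3. SLC2A8 reached 0.32 without pos replicate 1, against -1.57 without pos replicate 3, where it was called (adjusted p = 0.0240). SLC2A12 reached 0.41 with the length trend removed, 0.39 with the block added, 0.05 without neg replicate 3, 0.28 without pos replicate 3 and -0.51 without pos replicate 1. Net of the trend these 2 became 0.48 and 0.34. SLC2A11 reached -0.19 with library size only, and -0.49 and -0.46 without pos replicate 3, before and after removal of the trend, and 0.85 without pos replicate 1. The cause of these moves was not tested. At 0.0629 to 0.105 CPM per read, SLC2A6, SLC2A8, SLC2A10 and SLC2A13, with at most 68 reads a library, could show only large changes.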

Other observations

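Outside the rule for named genes, 3 genes besides LDHA were picked after their values were seen. SLC2A4, which encodes the insulin-responsive carrier GLUT4, had 0 and 15 reads in pos replicates 1 and 3, against 44, 52 and 26 in neg replicates 1, 2 and 3. Both pos libraries were below neg, and the log2 fold change of -1.92 (SE 1.04) missed the threshold (edgeR adjusted p = 0.233). It was -0.79 without pos replicate 1. Without pos replicate 3 the remaining pos library has no read, so no fold is given, and the gene was called in a fit that assumes the lone library varies like neg (adjusted p = 0.00312). The hexokinase gene HK2 had a mean of 72.1 ± 45.3 CPM in pos and 233 ± 18.9 CPM in neg (SD, n = 2 and 3), with a log2 fold change of -1.69 (SE 0.42, adjusted p = 0.0571), which passed with the length trend removed (-1.27, adjusted p = 0.0203). It was -1.19 without pos replicate 3 and -2.49 without pos replicate 1. HIF1A, the oxygen-regulated transcription factor known to act on SLC2A1 and SLC2A3, had 53.2 ± 41.2 CPM in pos and 148 ± 15.2 CPM in neg. Its log2 fold change was -1.48 (SE 0.51, adjusted p = 0.105), or -1.30 net of the length trend, and it was -0.88 without pos replicate 3 and -2.58 without pos replicate 1.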
